A study of Homo sapiens with 6 samples.

Results

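The control-high regions are 477 stretches of open chromatin that had a peak in all 6 libraries of the study but a lower signal in each of the 3 chimera libraries than in any of the 3 control libraries. They were taken from 56679 regions shared by all 6 libraries, out of 149765 regions formed by merging every peak on chromosomes 1 to 22 and X. The cells were H1155, an established human lung carcinoma line, and the assay was Omni-ATAC, a form of ATAC-seq in which a transposase inserts adapters into open DNA. Libraries came from 3 biological replicates of cells of the control genotype and 3 of cells of the chimera genotype, whose titles call them TA. The labels do not say what the chimera or TA is, how it was delivered, or whether the cells are pools or single clones.

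Open chromatin marks promoters, enhancers and insulators, the stretches of DNA where transcription factors displace nucleosomes. Promoters of active genes tend to be broad and open in most cell types, whereas enhancers are often narrower and differ more between cell states. ATAC-seq signal at such a site therefore has degrees, and a site that stays open can still lose or gain signal. The control-high regions are of that graded kind, since a peak was present in every library.

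Signal here is the authors' fold, the pileup of fragments at a peak's summit over the local background of the same library. To compare libraries, the highest fold in a region was divided by that library's median over the 56679 shared regions, and this scaled fold equals 1 for a region of middling strength. A region was taken if its lowest control value was at least 1.2 times its highest chimera value. These values chose the regions, so their levels and differences in the same libraries are a description and carry no test. Of the shared regions 0.842% passed this rule. The opposite rule, with the lowest chimera value at least 1.2 times the highest control value, took 445 chimera-high regions, or 0.785%. The 2 sets were thus of similar size. Without the 1.2 margin, 6.99% of shared regions had all control values above all chimera values and 9.5% the reverse.

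Libraries had 85745 to 109339 peaks and a genome-wide background pileup, recovered from the lists and standing in for depth, of 2.53 to 3.77. The median fold over the shared regions was 7.80, 6.31 and 8.22 in control libraries 1, 2 and 3 and 6.65, 7.24 and 6.71 in chimera libraries 1, 2 and 3. Without division by that median the rule took 721 control-high and 141 chimera-high regions, and the median log2 difference of all shared regions, control minus chimera, was 0.08 in place of −0.03. Across regions, Pearson's r of log2 scaled fold was 0.841 to 0.881 between control libraries, 0.857 to 0.866 between chimera libraries and 0.820 to 0.841 between the groups. The lowest value within a group, for controls 1 and 2, was thus no higher than the highest between groups.

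The typical control-high region went from slightly above middling strength in control cells to clearly below it in chimera cells. Its median scaled fold was 1.1, 1.11 and 1.13 in control libraries 1, 2 and 3 and 0.714, 0.711 and 0.716 in chimera libraries 1, 2 and 3. The medians of the 3 libraries of a group were close together, and the rule requires each library to take part. The ratio of the control mean to the chimera mean had a median of 1.51 and ran from 1.24 to 2.22. On the log2 scale the difference had a median of 0.61, with lower and upper quartiles of 0.52 and 0.71, against a median of −0.03 over all shared regions. Control 1 was the lowest control library in 165 regions, control 2 in 165 and control 3 in 147. Chimera 1 was the highest chimera library in 174, chimera 2 in 146 and chimera 3 in 157.

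**Figure D1:**
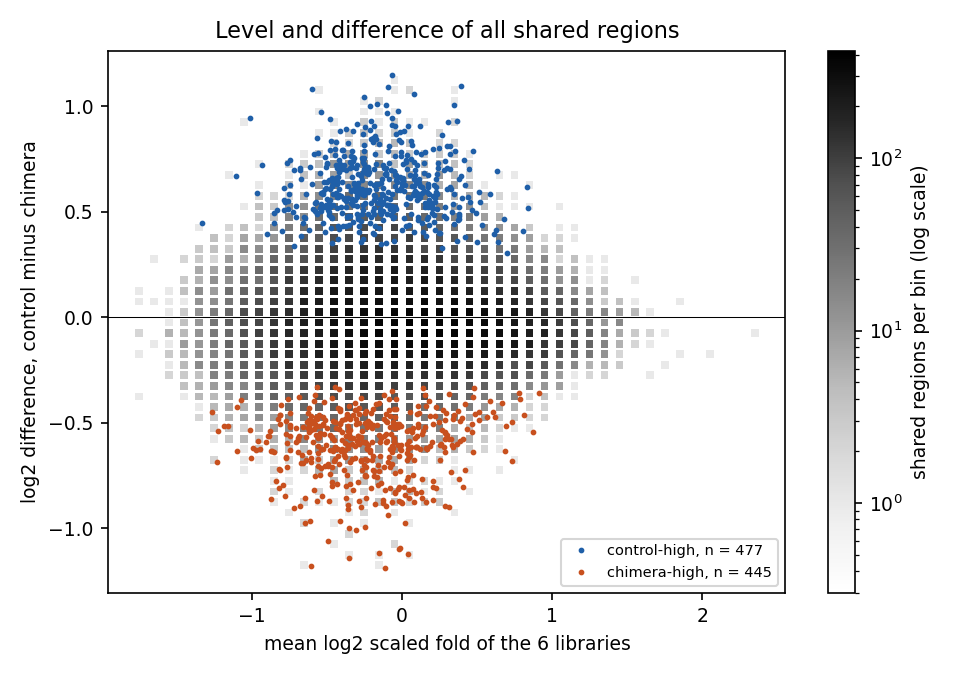
Each grey square is a bin of the 56679 shared regions, by mean log2 scaled fold of the 6 libraries (x) and log2 difference, control minus chimera (y), darker with more regions on a log scale. The 477 control-high regions (blue) and 445 chimera-high regions (orange) lie at the upper and lower edges of the cloud, mostly at low to middling levels, and their sets are of similar size.

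Control-high regions were mostly small differences at the edge of the rule. The ratio of the lowest control to the highest chimera value had a median of 1.26, was under 1.3 in 304 regions and reached 1.5 in 23. The opposite rule at 1.5 also took 23 regions. Next to the threshold, the 3 regions just inside lay on chromosome 11 from 8089777 to 8090779, chromosome 17 from 63070802 to 63071341 and chromosome 7 from 28482649 to 28483356, each with a ratio that rounds to 1.2. Their control means were 0.924, 1.09 and 1.32, and their chimera means 0.580, 0.717 and 0.882. The 3 just outside also had a ratio that rounds to 1.2, with control means of 1.38, 1.02 and 1.23 and chimera means of 0.908, 0.713 and 0.745. They lay on chromosome 2 from 144975203, chromosome 6 from 137923533 and chromosome 1 from 188812789. Regions on both sides of the threshold thus had alike values.

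The region with the largest ratio lay on chromosome 17 from 17671757 to 17672333. Positions are those of the deposited lists, counted from 1, and fit the length of chromosome 1 in GRCh37 (hg19) rather than GRCh38. The scaled fold there was 1.01, 0.864 and 1.02 in control libraries 1, 2 and 3, and 0.46, 0.47 and 0.44 in chimera libraries 1, 2 and 3. The deposited folds were 7.88, 5.45 and 8.36 in control and 3.04, 3.42 and 2.92 in chimera libraries. At the summits 63, 47 and 94 fragments were piled up in control libraries and 20, 23 and 24 in chimera libraries. Signal in chimera cells was thus under that of any control library by a ratio of at least 1.83. The mean was 0.964 ± 0.0865 in control cells and 0.455 ± 0.0187 in chimera cells (SD over 3 libraries).

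Second in rank was a region on chromosome 12 from 116804144 to 116804633. Its scaled fold was 1.23, 1.15 and 1.21 in control libraries and 0.63, 0.65 and 0.60 in chimera libraries, in the order of replicates 1 to 3. The next control-high region lay 6.99 kb away, on the same chromosome from 116796585 to 116797149, and ranked 447 of the 477. That neighbour was stronger, with scaled folds of 1.55, 1.72 and 1.73 in control and 0.877, 1.29 and 1.11 in chimera libraries. Both sites were lower in all chimera than in all control libraries, as the rule demands of each. The weaker one differed by the larger factor, and the stronger one stayed above middling strength in chimera 2 and 3.

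In all, 8 control-high regions (1.68%), in 4 pairs, had another within 10 kb, against 0.528% of all shared regions. Of chimera-high regions 0.449% had another of their own kind as near, against 0.709% of all shared regions. At 100 kb the order was the other way. There it was 4.61% of control-high against 5.74% of all shared regions, and 9.66% of chimera-high against 5.59%. Of the 4 pairs, 2 held a region of the first 5 ranks. The other one of these was on chromosome 2, where the region of rank 5 from 127885945 to 127886458 lay 5.53 kb from one at 127879627 to 127880416 (rank 431). Rank 5 had scaled folds of 1.23, 1.36 and 1.45 in control and 0.74, 0.74 and 0.72 in chimera libraries. Its neighbour was weak in all libraries, at 0.670, 0.644 and 0.768 in control and 0.490, 0.443 and 0.531 in chimera libraries. The remaining pairs lay on chromosome 14 from 100057037 and from 100062429 (4.94 kb apart), and on chromosome 17 from 77167304 and from 77172944 (5.32 kb apart). In these 4 regions the ratio of means ran from 1.31 to 1.51, with all control values above all chimera values as the rule demands.

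Rank 3 went to a weak site on chromosome 16 from 85424331 to 85424841, at 0.70, 0.70 and 0.68 in control and 0.39, 0.31 and 0.37 in chimera libraries. Its summit pileups were nevertheless high, at 67 to 118 fragments in control and 34 to 48 in chimera libraries, because fold is relative to the local background. On chromosome 22, from 50835181 to 50835886, the region of rank 4 had scaled folds of 1.05, 1.09 and 1.02 in control and 0.55, 0.55 and 0.60 in chimera libraries. In both regions the gap between groups was far larger than the spread within them, with 0.69 ± 0.0098 against 0.36 ± 0.0431 at rank 3 and 1.05 ± 0.0379 against 0.567 ± 0.0279 at rank 4 (control against chimera, SD, n = 3 each). The ranking itself favours a wide gap with little spread, so these SDs are a description.

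The region of rank 6, on chromosome 10 from 120369936 to 120370401, was less even. Its scaled fold was 1.24, 1.19 and 1.74 in control and 0.59, 0.63 and 0.72 in chimera libraries, so control 3 stood apart from controls 1 and 2. Rank 7, on chromosome 1 from 89412752 to 89413472, had 1.34, 1.26 and 1.53 in control against 0.75, 0.70 and 0.78 in chimera libraries. The region of rank 8 lay on chromosome 5 from 95033720 to 95034493 and had 1.38, 1.7 and 1.52 in control and 0.63, 0.87 and 0.72 in chimera libraries. Its ratio of means was 2.07, against a ratio of 1.58 between the lowest control and the highest chimera value.

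A second region of chromosome 10, from 22368663 to 22369184, ranked 9 and had the least spread among control libraries of the 20, with 1.02, 1.01 and 1.02 in control and 0.64, 0.59 and 0.62 in chimera libraries. Rank 10, on chromosome 2 from 36611230 to 36611610, was a strong site, at 1.63, 1.6 and 1.74 in control and 1.00, 0.81 and 1.03 in chimera libraries. It stayed near middling strength in chimera cells. Strong sites of the same kind were rank 15 on chromosome 2 from 38504866 to 38505437 (control 1.63 ± 0.150, chimera 0.954 ± 0.0416) and rank 16 on chromosome 7 from 81113430 to 81113944 (control 1.74 ± 0.109, chimera 1.07 ± 0.00511; SD, n = 3 each).

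The other 8 of the first 20 ranks had control means of 0.875 to 1.27 and chimera means of 0.492 to 0.75. They lay on chromosome 4 from 77029584 (rank 11), chromosome 6 from 10383590, 88432806 and 164588845 (ranks 12, 19 and 20), chromosome 13 from 106837144 (rank 13), chromosome 16 from 3592646 (rank 14), chromosome 20 from 38407378 (rank 17) and chromosome 2 from 8557465 (rank 18). Over the 20, summits were built from 19 to 118 fragments in control and from 12 to 48 in chimera libraries. The lowest summit of any peak had 10, 9 and 12 fragments in chimera libraries 1, 2 and 3, so the lowest of these values lay near that floor. Among the 477, 96 had a chimera peak with a deposited −log10 q under 5 and 2 had such a control peak, a difference the rule favours. The same shares over all shared regions were not computed, so the count of 96 is a description. Where all peaks had to reach a −log10 q of 5, 52397 regions were shared, against 56679 without that demand. Such weak peaks were thus not limited to the 477. Summits of the 6 libraries fell within 130 bp of each other in 18 of the 20. The exceptions were rank 19, with a range of 241 bp, and rank 17, with 448 bp, where the tops of the peaks were spread over the region. All 20 also passed the rule with no scaling, with upper quartile scaling, with quantile scaling and with pileup in place of fold. Of the whole 477, 222 passed all 4. These settings reuse the peaks that ranked the regions, so passing them supports nothing further.

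**Figure D2:**
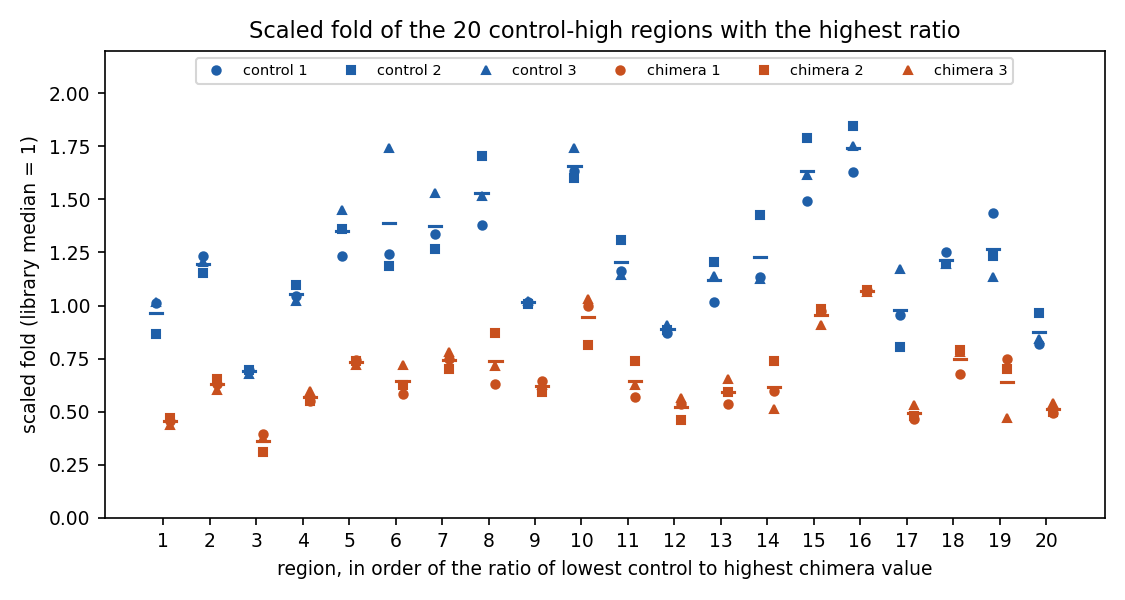
Points are the scaled fold of each library (1 is the library's median over shared regions) for the 20 control-high regions with the highest ratio, in rank order, and short lines are group means of 3 libraries. All control points (blue) lie above all chimera points (orange) in each column, as the rule demands, and rank 6 shows 1 control library apart from the other two.

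Control-high regions of great strength were rare, and the 5 with the highest control mean had ratios of means from 1.33 to 2.07. The highest mean in control libraries was on chromosome 21 from 46574601 to 46575112, with scaled folds of 2.25, 2.29 and 2.08 in control and 1.62, 1.67 and 1.1 in chimera libraries. On chromosome 7, from 76067112 to 76067556, the values were 2.02, 2.33 and 2.09 in control and 1.43, 1.6 and 1.47 in chimera libraries. Both stayed above middling strength in all chimera libraries, the chromosome 21 region only slightly so in chimera 3. A region on chromosome 3 from 172384606 to 172385026 had 2.11, 1.96 and 1.99 in control and 1.61, 1.51 and 1.44 in chimera libraries. One on chromosome 6 from 44867821 to 44868487 had 2.52, 1.69 and 1.79 in control and 1.29, 1.18 and 1.19 in chimera libraries, with control 1 far above the other two. The last of the 5, on chromosome 2 from 76483640 to 76484238, had the widest gap, at 2.02, 1.69 and 2.09 in control against 0.93, 0.63 and 1.25 in chimera libraries, a ratio of means of 2.07.

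Across the whole set, control-high regions came mainly from weak and middling sites. Of the 477, 311 (65.2%) lay below the median level of shared regions, by mean log2 scaled fold, and 4 (0.839%) in the strongest decile. They made up 1.46% of decile 4, 0.441% of the weakest decile and 0.0706% of the strongest. Chimera-high regions were also mostly weak, with 71.7% below the median level and the highest share, 1.27%, in decile 3.

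**Figure D3:**
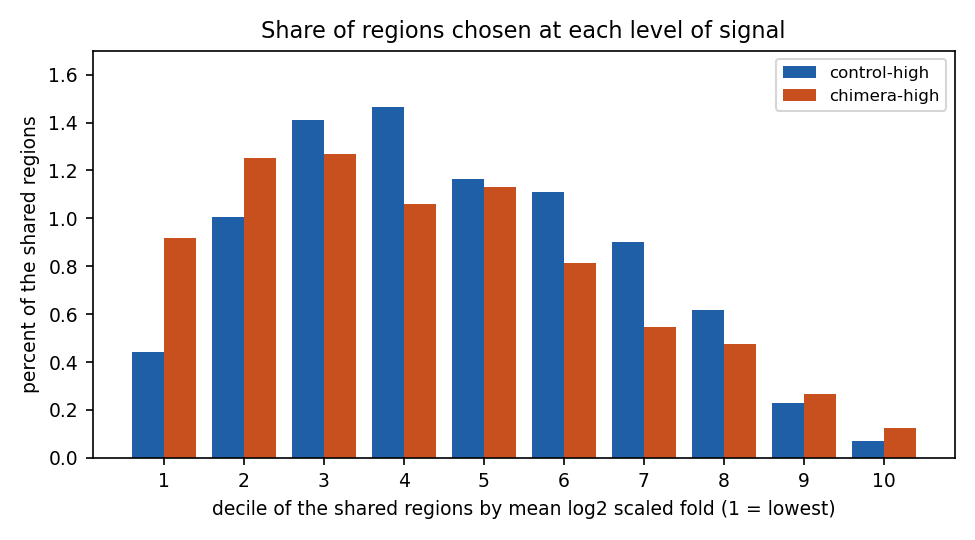
Bars give the percentage of shared regions in each decile of mean log2 scaled fold (x, 1 is the weakest) that were control-high (blue) or chimera-high (orange). Control-high regions peak at 1.46% in decile 4 and drop to 0.0706% in decile 10.

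Control-high regions were narrower than shared regions in general. Their median width was 629 bp, against 739 bp over all shared regions and 661 bp for chimera-high regions. This is a description, with no test over regions. Only 38 of them (7.97%) were 1 kb or wider, against 26.9% of all shared regions, and 1 reached 2 kb. That one, on chromosome 14 from 74251983 to 74254130, was 2148 bp wide and had scaled folds of 0.992, 1.02 and 0.997 in control and 0.745, 0.785 and 0.755 in chimera libraries. The narrowest, on chromosome 4 from 140587874 to 140588143, was 270 bp wide. Width grows with strength, so it was also read within quartiles of the level. In the weakest quartile the medians were 625 bp for control-high and 597 bp for all shared regions, in the next 604 and 664 bp, then 635 and 779 bp, and in the strongest 667 and 932 bp. These quartiles held 126, 185, 135 and 31 control-high regions, weakest first. In the upper 3 quartiles control-high regions were narrower, and in the weakest they were not. For chimera-high regions the medians were 592, 675, 683.5 and 765 bp in the same order, below those of all shared regions except in quartile 2. Narrowness among the stronger sites was thus not particular to control-high regions.

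Peaks in these regions were also shorter in chimera libraries. The median summed peak width was 498, 434 and 530 bp in control libraries 1, 2 and 3 and 342, 356 and 359 bp in chimera libraries 1, 2 and 3. Over all shared regions the same medians were 567, 491 and 610 bp in control and 534, 550 and 553 bp in chimera libraries. After division by the library's median, control widths lay above all chimera widths in 162 of the 477, against a background of 6.35% of shared regions. Width is read from the same peaks as the fold, so nothing independent follows from that count. Regions with exactly 1 peak in each of the 6 libraries made up 388 (81.3%) of the control-high and 72.8% of all shared regions. Splitting of a region into several peaks was thus no more frequent here.

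The summits of control and chimera peaks were close to each other. The median offset between the middle control summit and the middle chimera summit was 15 bp, against 11 bp over all shared regions. It was over 100 bp in 38 control-high regions (7.97%) and in 7.33% of all shared regions. In most of the set the same site was therefore compared in both groups.

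The difference in fold lay in the pileup at the summit, with little difference in the local background. Both terms of the fold were recovered from the lists. The median summit pileup was 43, 36 and 52 fragments in control libraries 1, 2 and 3 and 25, 24 and 30 in chimera libraries 1, 2 and 3. Over all shared regions it was 51, 41 and 65 in control and 48, 48 and 56 in chimera libraries. With each library's median taken off, the median log2 difference of control-high regions was 0.66 in pileup and 0.02 in local background, against 0.01 and −0.00 over all shared regions. On pileup alone the control values lay above all chimera values in 463 of the 477, and 327 passed the 1.2 rule, where the backgrounds are 9.81% and 1.72% of shared regions. The groups were chosen apart on a measure built from the same pileup, so these counts support nothing further.

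Control-high regions sat in surroundings with a lower background than shared regions in general. Local background was 1.34, 1.29 and 1.34 times the genome-wide background in control libraries and 1.19, 1.21 and 1.25 times in chimera libraries (medians, replicates 1 to 3). The same medians over all shared regions were 1.87, 1.67 and 1.96 in control and 1.72, 1.78 and 1.75 in chimera libraries. Chimera-high regions lay between, at 1.37 to 1.48 in control and 1.51 to 1.53 in chimera libraries. In 53 control-high regions (11.1%) the background was within 1% of the genome-wide level in all 6 libraries, against 4.71% of all shared regions. The nearest other shared region lay a median of 11.7 kb away, against 9.08 kb for all shared regions and 8.03 kb for chimera-high regions. Another shared region within 10 kb was present for 44.2% of control-high, 54.4% of chimera-high and 53.0% of all shared regions. Within quartiles of the level the share for control-high regions was 61.1% against 76.3% of all shared regions in the weakest. It was 42.7% against 54.0% and 33.3% against 45.7% in the next quartiles, and 32.3% against 36.0% in the strongest. The control-high share was lower in each, but the small gap in the strongest quartile rests on 31 control-high regions. For chimera-high regions the share was 76.6%, 45.3%, 36.2% and 43.8% in the same order, also under that of all shared regions in the middle 2 quartiles. These are descriptions of 1 set of regions in 6 libraries, with no test over regions.

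Open sites around the control-high regions were read as well, where 3 libraries against 3 cannot give an exact permutation p under 0.1. Shared regions of neither set were grouped by distance from a control-high region, and each library's median log2 scaled fold, with the region's mean over 6 libraries taken off, was compared between groups. At 5 to 20 kb (552 regions) the medians were −0.03, 0.06 and −0.04 in control libraries 1, 2 and 3 and 0.02, 0.01 and 0.00 in chimera libraries 1, 2 and 3. The difference, control minus chimera, was −0.01 (two-sided exact permutation p = 0.8). It was −0.02 at 20 to 100 kb (2583 regions, exact permutation p = 0.5) and −0.02 at 100 to 500 kb (10121 regions, exact permutation p = 0.4), against −0.02 over all 55757 regions of neither set. In these 3 distance classes the groups overlapped, and control 2 was the highest library.

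In the nearest sites the chimera values were the higher ones, at a size the design cannot call. These sites lie beside regions chosen as higher in control in the same libraries, so their values are not independent of that choice. Within 5 kb, 100 shared regions had medians of −0.05, −0.01 and −0.12 in control and 0.08, 0.06 and 0.04 in chimera libraries, a difference of −0.12 with no overlap between groups (two-sided exact permutation p = 0.1, the smallest possible, and 0.4 after adjustment over the 4 distances). Of these 100 regions 31.0% had a control mean above the chimera mean, against 44.9% of all regions of neither set. Within 5 kb of chimera-high regions lay 202 regions, and there the share was 57.9%. Their difference was 0.02, with overlapping groups (two-sided exact permutation p = 0.8), and 0.01 in summit pileup (median log2). In those 202 regions control 2 stood at 0.11, against −0.002 and −0.04 in controls 1 and 3, so no direction is read from their difference. In summit pileup the 100 regions near control-high regions had a median log2 difference of −0.01, against 0.01 over all. The difference near control-high regions was thus present in the fold and not in the pileup. By definition the fold holds only pileup and local background, and the local background of these 100 regions was not tested on its own.

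**Figure D4:**
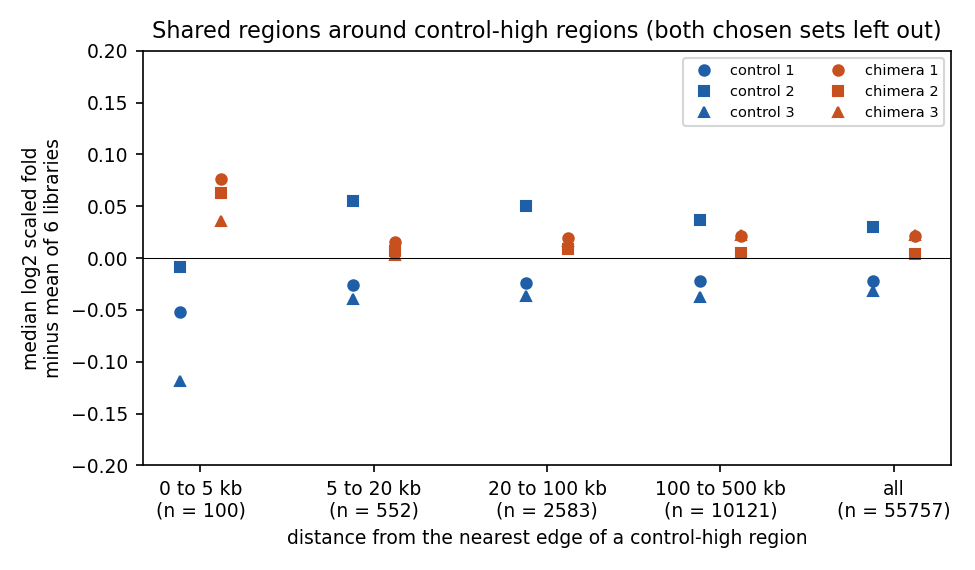
Points give, for each library, the median log2 scaled fold of shared regions at 4 distances from a control-high region, less each region's mean over 6 libraries, with regions of both sets left out; the last column is all such regions. Control (blue) and chimera (orange) libraries overlap from 5 kb outward, and only within 5 kb do all chimera points lie above all control points.

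Control-high regions were spread over all 23 chromosomes used. They made up between 0.491% (chromosome 19, 11 of 2242 shared regions) and 1.3% (chromosome 8, 31 of 2393) of the shared regions of a chromosome. Chromosomes 1 and 2 held 42 and 41, which is 0.732% and 0.928% of their shared regions. The nearest other control-high region was a median of 1572 kb away, and 306 of the 477 had none within 1 Mb. Within 100 kb of another control-high region lay 22 (4.61%), against 5.74% of all shared regions within 100 kb of one. Regions called in all control and no chimera library lay within 100 kb of 69 control-high regions (14.5%), against 14.6% of all shared regions. Regions called in all chimera and no control library did so for 38 (7.97%), against 9.24%. At 100 kb these shares were near or below those of all shared regions.

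The densest group within 1 Mb held 4 control-high regions, on chromosome 7 between 1627900 and 2430490. From 1627900 to 1628966 the scaled fold was 0.81, 0.82 and 0.89 in control and 0.62, 0.61 and 0.53 in chimera libraries. It was 0.96, 0.96 and 0.99 against 0.65, 0.78 and 0.70 from 1789228 to 1790599. The others, from 1990525 and from 2429695, had control means of 1.08 and 0.862 and chimera means of 0.781 and 0.605. Each had a ratio of means of 1.37 to 1.44, which is under the median of the whole set. Of the 31 other shared regions between them 16 had a control mean above the chimera mean, with a median log2 difference of 0.03, so the stretch as a whole did not differ in one direction.

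The rule was also applied to 2 control and 2 chimera libraries at a time, and the regions it took were read in the control and chimera library left aside, for each of the 9 pairs. This took 1750 to 2162 regions, and every such set holds the 477, for which a control value above the chimera value in the pair left aside is fixed by their choice on all 6 libraries. A peak in all 6 libraries was required throughout, and the 9 pairs share libraries. In the pair left aside, control was above chimera in 64.2% to 71.1% of the regions taken, against 42.9% to 53.6% of all shared regions. With no scaling that share ran from 37.2% with control 2 and chimera 2 left aside to 91.0% with control 3 and chimera 1 left aside. The shares of all shared regions in those pairs were 28.2% and 81.3%. Since the 477 count towards these shares by construction, the shares are given as a description and support nothing about the control-high regions.

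On scaled fold, single regions mostly did not stand out once all 56679 were tested together, and the number called depended on the measure and model. In limma's moderated test on log2 scaled fold, with Benjamini-Hochberg adjustment, 2 regions (0.00353% of those tested) were lower in chimera and 4 (0.00706%) higher at an adjusted p under 0.05. Both of the 2 were control-high regions, of rank 1 and rank 8, and were chosen on the same values. Their log2 differences were 1.08 (SE 0.165) on chromosome 17 and 1.06 (SE 0.164) on chromosome 5. At an unadjusted p under 0.05 limma had 3165 regions lower and 3229 higher in chimera. The 2 calls were lost without any 1 of the control libraries and without chimera 1 or 2, where limma called 0 lower, and 11 were called without chimera 3. With the replicate number as a block, limma on fold called 40 lower and 32 higher. With summit pileup in place of fold, limma called 662 regions (1.17%) lower and 726 higher.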

How the data were processed

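ATAC-seq libraries of H1155 cells, 3 of control and 3 of chimera genotype, were each represented by 1 peak list, called per library with MACS2, per the file names. The aligner, its settings and read filters are not given in sources used here. HOMER 4.9 and GRCh38 appear in the submitters' processing notes, but peaks reach position 249239990 on chromosome 1, past its end in GRCh38 and within it in GRCh37. The gene table and promoter sequences at hand are of GRCh38, so the planned gene names, gene lists, distances to transcription starts, motifs and sequences were not used here.

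The deposited fold is the authors' ratio of summit pileup to local background, with 1 added to both. As deposited, −log10 p and −log10 q refer to tests within a library, by the authors. The authors' score column was not used. Pileups were recovered from fold and −log10 p under a Poisson model (tolerance 0.005, over 99.9% of peaks).

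Peaks sharing at least 1 bp were merged. limma 3.58.1 in R 4.3.3 was fitted to log2 scaled fold without a pseudocount, and checked on simulated data; the rest used Python 3.11.15 and scipy 1.17.1. Named regions were the first 20 by ratio, the 5 with the highest control mean, 3 on each side of the threshold and the densest group in 1 Mb. Members and lists were chosen with earlier results of these data known, and the neighbour, pileup, width and spacing comparisons were added after values were seen. The labels call the replicates biological and give no batch. Libraries of the same number were not treated as pairs, since their deviations from the group means had correlations of −0.00547, −0.0592 and −0.0145. Alternatives covered scaling, measure, margin, peak strength, merging, single libraries and replicate numbers.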

Additional observations from a re-analysis of the deposited data

How the results depend on the processing

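The 477 control-high regions became 721 with no scaling (299 of the 477 among them), 974 with recovered pileup (327), 1682 with −log10 q as the measure (469), 1340 at a ratio of at least 1.1, 23 at 1.5, 171 where all peaks reached a −log10 q of 10 (155) and 251 with peaks covering at least 50% of a region (240). Opposite counts there were 141, 1042, 1661, 1460, 23, 130 and 240. Without 1 library the count was 898 to 1184. There fewer libraries must satisfy the rule, and the shared regions also changed, to between 57328 and 61551. With upper quartile scaling (520), quantile scaling (501), a −log10 q of 5 (382) and merging within 1 kb (475) it stayed within 1.5 times. With the replicate number as a block, 1213 regions had a ratio of at least 1.2 within each pair, against 1092 the other way. limma called 2 regions lower in chimera, 40 with the replicate block, 662 with recovered pileup, 0 with no trend, with no scaling and where −log10 q reached 10, and 0 to 11 without 1 library. At an unadjusted p under 0.05 limma had 3164 with no trend, 4314 with no scaling, 1961 where −log10 q reached 10 and 2659 to 3324 without 1 library. The share with control above chimera in the pair left aside (median 68.9%, in part fixed by the rule) was 83.6% with no scaling, where control exceeded chimera in 70.4% of all shared regions, and 64.2% to 71.1% over pairs with the median scaling. The width difference of −110 bp was −162 bp at a ratio of 1.5, −221 bp with merging within 1 kb and −137 to −113 bp without 1 library. The ratio of the 90th percentile to the median of the fold over shared regions was 1.65 ± 0.0174 for control and 1.68 ± 0.0135 for chimera (SD over 3 libraries, two-sided exact permutation p = 0.2, smallest possible 0.1). The difference, control minus chimera (−0.0276), reversed to 0.0130 with recovered pileup (exact permutation p = 0.6). It was −0.0405 to −0.0194 without 1 library, and exact sign flips within replicate pairs gave p = 0.5, where 0.25 is the smallest possible. The causes of these changes were not tested. No distance to a transcription start was computed, since the annotation is of another build. Total read depth was not used here, and at 12 to 48 fragments per chimera summit in the first 20 ranks counting error limits each value.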
